A study of Mus musculus with 2 samples.

Results

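A list of 36 genes for lysosomal enzymes and lysosomal membrane proteins was followed through 2 single-cell RNA sequencing libraries of regenerating mouse muscle. The genes were listed by name from their known products, 9 cysteine cathepsins, 4 other peptidases, 6 glycosidases, 7 genes of lipid breakdown and lipid transfer, 2 acid phosphatases, 5 membrane proteins and 3 subunits of the proton pump, and 36 of 36 were found once among the 27998 genes of the count tables. The list was chosen with earlier results of these data known, so counts of its members beside those of all genes are a description. The libraries came from the tibialis anterior muscle of C57BL/6J mice (C57Bl/6 in the labels) injected with notexin, a snake venom toxin that destroys muscle fibres, and dissociated whole at day 2 and at day 7 after injury. Both groups share the strain and the injury, neither carries an engineered allele, and no uninjured library was analysed here. The labels give the 2 mice as female and 7 months old, whereas the annotation deposited with the cells gives both as male and the day 2 mouse as 4 months old. Counts of 4 Y-linked genes came to 6575 at day 2 and 4856 at day 7, against 5 and 1 counts of Xist. With 1 library per day there is no replicate, so no test between days or labels was possible, intervals cover counting error only, and day, mouse and library cannot be told apart.

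Lysosomes are acidic compartments in which proteins, sugars, lipids and nucleic acids delivered by phagocytosis, endocytosis or autophagy are broken down. Cathepsins and other peptidases cut proteins, glycosidases remove sugars from glycoproteins and glycolipids, lipases and saposins handle lipids, and the vacuolar ATPase (V-ATPase) pumps in the protons that keep the lumen acid. In injured muscle, monocytes enter from the blood, become macrophages and engulf the debris of dead fibres.

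The annotation put 3178 cells at day 2 and 3196 cells at day 7 under a label and within the quality limits, with median counts of 9058.5 and 6583 unique molecular identifiers (UMIs) per cell, and 1 cell barcode kept was present in both libraries. The 7 labels with monocyte, macrophage or dendritic in their name held 1462 cells at day 2 and 902 cells at day 7. Counts were summed over the cells of a label and scaled to 1000000 UMIs of that label (CPM, counts per 1000000). Of the 7 labels, 6 held at least 50 cells at both days and were compared between days, and Monocyte (Cxcl10+), with 38 and 45 cells, was not. The label names were checked against marker genes. Cells labelled Monocyte (Patrolling) had Spp1 and Gpnmb among their 10 leading genes at both days, with Atp6v0d2 and Ctsd of the list among them at day 7. They stood at 0.72 and 1.4 CPM for Ace and at 1.80 and 2.79 CPM for Treml4, both markers of patrolling monocytes. Ace was also undetected in Dendritic at day 2 and in M2 Macro. (Cx3cr1_lo) at day 7. In Monocyte (Patrolling), 9 macrophage markers summed to 4450.1 and 15784 CPM and 9 monocyte markers to 1048 and 321. The paper describes its patrolling monocytes as high in Fabp5 and without Cx3cr1 and Ly6c2, genes whose levels are not reported here. The name is used here only as the label, since the marker sums go against it. The M1 Macro. label had none of the 9 macrophage markers among its leading 10 genes at either day, and Chil3, a monocyte gene, among them at day 2. The Dendritic label was led by Cd209d and Cd209a, a dendritic marker, at day 2 and by Siglech, a gene of plasmacytoid dendritic cells, at day 7. Cells under 1 label therefore differed between days in more than their lysosomal genes, and since the labels were drawn from clusters of expression, levels across labels are a description. The summed level of 9 macrophage markers went from 2071 to 8429.8 CPM in Monocyte (Inflammatory), from 4450.1 to 15784 in Monocyte (Patrolling), from 4241 to 17274 in M1 Macro., from 3826 to 20649 in M2 Macro. (Cx3cr1_hi), from 6761 to 20354 in M2 Macro. (Cx3cr1_lo) and from 603 to 453 in Dendritic. That of 9 monocyte markers went the other way in the same 5 monocyte and macrophage labels, from 5723 to 2143 CPM in Monocyte (Inflammatory), 1048 to 321 in Monocyte (Patrolling), 2817 to 641 in M1 Macro., 2417 to 832 in M2 Macro. (Cx3cr1_hi) and 1673 to 652 in M2 Macro. (Cx3cr1_lo), with 1879 to 2774 in Dendritic. The part of either in the results between days was not tested.

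The listed genes were concentrated in the monocyte and macrophage labels. Summed over the 36 genes, the 7 labels together reached 27020.2 CPM (95% interval 26946 to 27095) at day 2, and all other cells 5643 CPM (95% interval 5605 to 5680.4), a log2 ratio of 2.26 (95% interval 2.25 to 2.27). At day 7 the levels were 39897 and 6559.8 CPM, a log2 ratio of 2.60 (95% interval 2.60 to 2.61). Of the members, 33 at day 2 and 35 at day 7 had a mean of at least 10 CPM over the 2 sums, and 26 of these were at least 2-fold higher in the pooled labels at each day, where 10.7% and 12.5% of all genes passing the same filter were. Of the 26, 1 at day 2 and 2 at day 7 lay under 10 CPM in the other cells and passed only through the group in which they were high. Another 1 member at day 2 and 2 at day 7 were at least 2-fold lower, against 22.4% and 27.1% of all genes. The median log2 ratio of the members was 1.86 and 2.42, that of all genes -0.27 and -0.39. The widest gaps were those of Ctss, an antigen-processing cathepsin, with log2 ratios of 4.75 and 6.58, Ctsc, which activates granule proteases (4.66 and 4.22), Cd68, a heavily glycosylated macrophage membrane protein (4.25 and 6.56), and Lgmn, asparaginyl endopeptidase (4.02 and 3.86). Atp6v0d2, a V-ATPase subunit best known from osteoclasts, was left out by the filter at day 2 and had a log2 ratio of 7.01 at day 7, at 203 against 1.57 CPM. Smpd1, acid sphingomyelinase, was the member lower in the pooled labels at day 2 (-1.12), a call lost with median-of-ratios scaling, and Ctsk and Ctsf, cathepsins of connective tissue and other cells, were those at day 7 (-3.15 and -2.63). Small gaps were also those of Cd63 (-0.29 and 0.73), Gaa (0.48 and -0.96), Ctso (0.54 and -0.33), Lamp2 (0.92 and 0.53) and, at day 7, Ctsl (0.46). Median-of-ratios scaling, which takes the median gene as equal, subtracts -0.33 at day 2 and -0.38 at day 7 from each of these ratios, so that positive gaps widen and negative ones narrow, and Cd63 at day 2 and Ctso at day 7 turn positive.

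Among the single labels the order was steep. Cells labelled Monocyte (Patrolling) had the highest summed level at both days, 41471 CPM (95% interval 41232 to 41711) and 60468 CPM (95% interval 60066 to 60872). M2 Macro. (Cx3cr1_lo) followed at day 2 with 30937 CPM and M1 Macro. at day 7 with 45763 CPM. Dendritic cells lay lowest of the 7 labels, at 9129 and 10648 CPM. Outside these labels, Neutrophils reached 14585 CPM (95% interval 14415 to 14755) at day 2, and the fibro/adipogenic progenitors (FAPs) labelled Pro-remodeling went from 6317 to 10568 CPM, close to the dendritic level. Barcodes with too few counts to be cells, which hold free RNA, stood at 7762 and 9730.0 CPM. Labels with at least 50 cells numbered 12 at day 2 and 17 at day 7. The share of all genes with their highest level in a given label was not computed, so the counts that follow describe the members alone. The Monocyte (Patrolling) label held the highest level of any label with at least 50 cells for 18 of 36 members at day 2 and 21 of 36 at day 7, and in 9 and 17 of these the interval of its ratio to the next label lay above 1. Those at both days were Ctsb, Ctsl, Ctss, Ctsz, Ctsd, Tpp1, Hexa, Gusb, Npc1, Psap, Lipa, Acp5, Cd68, Atp6v0d1, Atp6v0d2 and Atp6v1a, with Gaa and Npc2 at day 2 and Ctsa, Glb1, Man2b1, Lamp1 and Cd63 at day 7. M2 Macro. (Cx3cr1_lo) was highest for Ctsc, Lgmn, Asah1 and Acp2 at both days and for Ctso, Ctsa, Ppt1 and Lamp1 at day 2. Ctsf and Ctsk were highest in FAPs (Pro-remodeling) at both days, joined there by Cd63 at day 2 and Gaa at day 7, and Smpd1 was highest in Smooth Muscle at both days. Of the rest, Ctsh was highest in Dendritic and Man2b1 in Monocyte (Inflammatory) at day 2, Gla, Lamp2 and Mcoln1 in Neutrophils at day 2, Glb1 in T Cells at day 2, Ppt1 in Dendritic, Gla in Monocyte (Inflammatory), Npc2 in M1 Macro., Ctsh in M2 Macro. (Cx3cr1_hi), Ctso in FAPs (Stem), Lamp2 in FAPs (Adipogenic) and Mcoln1 in Endothelial (Stem) at day 7.

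**Figure D1:**
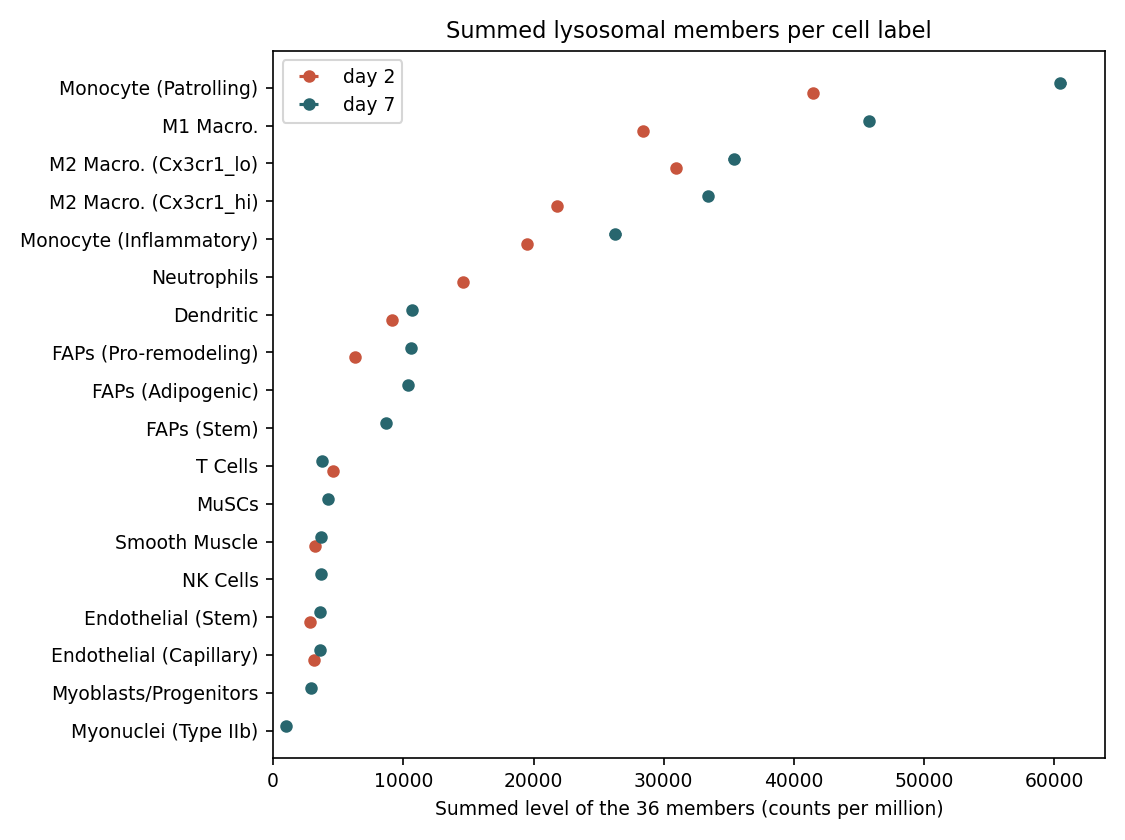
Summed level of the 36 genes in CPM (x axis) for each label with at least 50 cells at that day (y axis); points are sums over the cells of 1 library, and bars, mostly hidden by the points, are exact 95% Poisson intervals. Monocyte (Patrolling) lies farthest to the right at both days, at 41471 and 60468 CPM.

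Between days, the summed level was higher at day 7 in each of the 6 compared labels. The log2 ratio was 0.69 (95% interval 0.68 to 0.70) in M1 Macro., from 28375 to 45763 CPM, and 0.61 (95% interval 0.59 to 0.64) in M2 Macro. (Cx3cr1_hi), from 21806 to 33378 CPM. It was 0.54 (95% interval 0.53 to 0.56) in Monocyte (Patrolling) and 0.43 (95% interval 0.40 to 0.45) in Monocyte (Inflammatory), the latter from 19526 to 26254 CPM. Dendritic, at 0.22 (95% interval 0.19 to 0.26), and M2 Macro. (Cx3cr1_lo), at 0.19 (95% interval 0.17 to 0.22), had the smallest ratios. The dendritic ratio rested on 1 gene, since without Psap it was -0.0094. The median share of a cell's counts taken by the 36 genes moved from 2.32% to 4.09% in M1 Macro., from 4.14% to 5.94% in Monocyte (Patrolling) and from 3.08% to 3.18% in M2 Macro. (Cx3cr1_lo). Cells within a label overlapped widely between days, with the 10th and 90th percentiles of M1 Macro. cells at 1.41% and 4.35% at day 2 and at 2.18% and 6.50% at day 7.

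**Figure D2:**
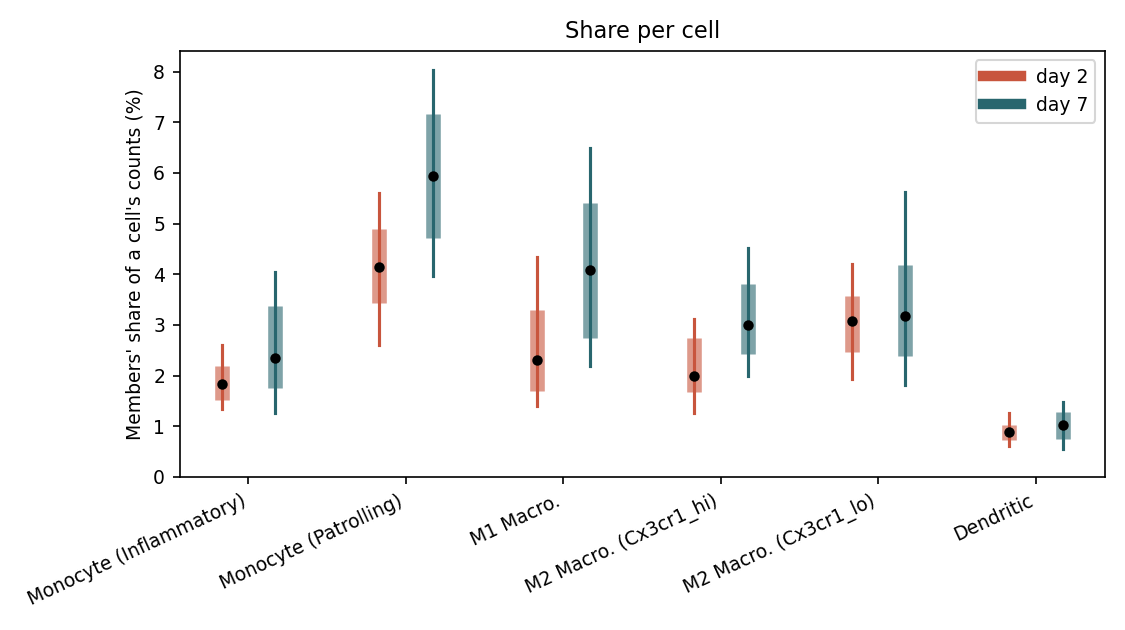
Share of each cell's UMIs that fell on the 36 genes (y axis, percent) in the 6 compared labels (x axis) at both days; dots are medians over cells, thick bars the middle 50% of cells and thin lines run from the 10th to the 90th percentile. Medians were higher at day 7 in each of the 6 labels, and the ranges of the days overlap.

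Member by member, the genes did not move together. Values in parentheses after a pair of levels are log2 ratios of day 7 to day 2. In M1 Macro., 14 of the 34 members passing the filter were at least 2-fold higher at day 7 and 0 were at least 2-fold lower, where 12.2% of all genes were higher and 15% lower. In Monocyte (Inflammatory) 11 of 33 were higher and 2 lower, against 14.7% and 16% of all genes. In M2 Macro. (Cx3cr1_hi) the counts were 11 and 1 of 33 (13.5% and 16.2% of all genes), in M2 Macro. (Cx3cr1_lo) 9 and 1 of 34 (13.9% and 17%), and in Monocyte (Patrolling) 9 and 0 of 35 (12.8% and 14.8%). Of the members counted as higher, 4 in Monocyte (Inflammatory), 1 in Monocyte (Patrolling), 1 in M1 Macro. and 2 in each of the 2 M2 labels and in Dendritic lay under 10 CPM at day 2 and so could pass the filter only by being higher at day 7. In these 5 labels the share of members past 2-fold upwards, from 25.7% to 41.2%, lay above that of all genes, and the share downwards, from 0% to 6.06%, lay below it. Without the level filter, 12 of 36 members in Monocyte (Inflammatory) and 10 of 36 in M2 Macro. (Cx3cr1_lo) were higher, below the 42.3% and 41.3% of all genes with a count. That setting cannot decide whether the upward share held, because sums under 3 counts were taken as 3 at both days. The 2 labels were deeper at day 2 (2519349 against 556598 and 3153695 against 577784 counts). Nearly empty genes are then called higher by depth alone. In Dendritic, 5 and 2 of 30 members were past 2-fold, 16.7% and 6.67%, close to the 12.7% and 7.85% of all genes. The median log2 ratio of the members ran from 0.11 in Dendritic to 0.80 in M1 Macro., that of all genes from -0.20 to 0.03. Acp5 was at least 2-fold higher in 6 of 6 labels, in Dendritic at a level under that of free RNA, Atp6v0d2, Ctsh, Ctss and Hexa in 5, and Lipa, Man2b1, Cd63 and Smpd1 in 4, whereas 19 members were past 2-fold upwards in none. In 4 members, Acp5, Lipa, Psap and Npc2, the interval lay above 0 in each of the 6 labels, and in Atp6v0d1 and Ctsc it lay below 0 in each. The shares of all genes that met these criteria across labels were not computed, so these counts describe the members alone. Median-of-ratios scaling, which takes the median gene as unchanged, shifts every log2 ratio by an offset to be subtracted, -0.26 in M2 Macro. (Cx3cr1_hi) and -0.12 in Monocyte (Patrolling) and under 0.1 in size in the other 4 labels, and each of the 65 calls past 2-fold held with it.

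**Figure D3:**
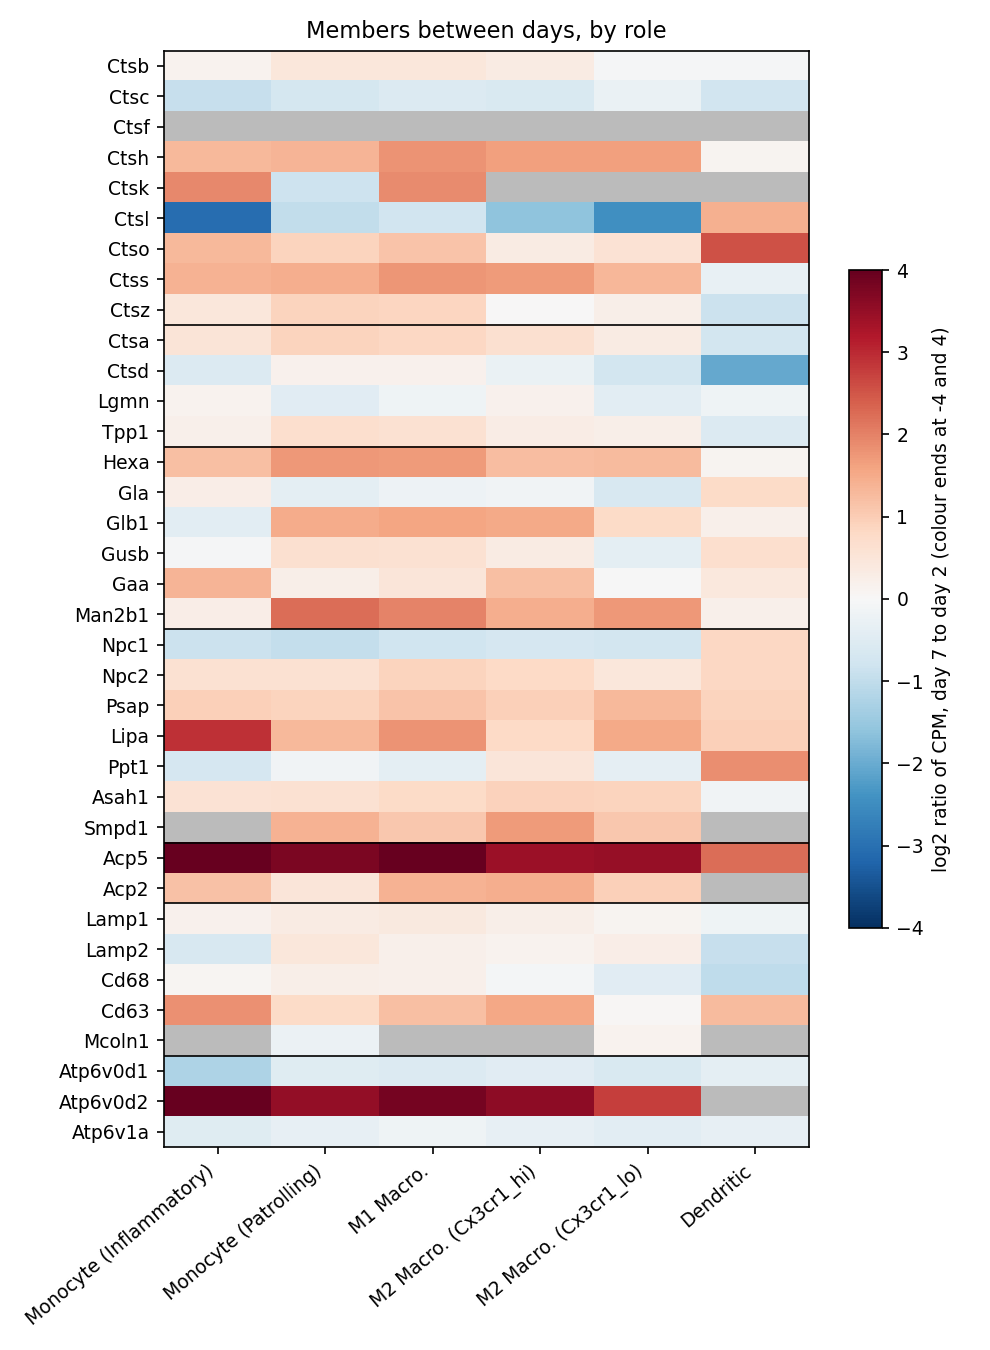
Log2 ratio of CPM, day 7 to day 2, for each of the 36 genes (rows, in blocks by role from cysteine cathepsins at the top to the proton pump at the bottom) in the 6 compared labels (columns); red is higher at day 7, blue lower, the colour scale ends at -4 and 4, and grey cells did not reach a mean of 10 CPM. Acp5 and Atp6v0d2 form the darkest red rows, and Ctsl is blue in 5 labels and red in Dendritic.

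The cysteine cathepsins held members of opposite direction. Ctss, cathepsin S, which trims the invariant chain in antigen-presenting cells, went from 1621 to 4262 CPM in Monocyte (Inflammatory), 2860.3 to 7804 in Monocyte (Patrolling), 1869 to 6390.1 in M1 Macro., 1789 to 5851 in M2 Macro. (Cx3cr1_hi) and 1568 to 3972 in M2 Macro. (Cx3cr1_lo), log2 ratios of 1.34 to 1.77. In Dendritic it went from 1119 to 914 CPM (-0.29, 95% interval -0.40 to -0.18). Ctsh, an aminopeptidase among the cathepsins, followed the same 5 labels, with log2 ratios from 1.29 to 1.80, and stood at 624 and 669.7 CPM in Dendritic, where it had been highest at day 2. Ctsl, cathepsin L, an endopeptidase of broad reach, went the other way in the monocyte and macrophage labels. Its level went from 1719 to 208 CPM in Monocyte (Inflammatory), -3.04 (95% interval -3.32 to -2.78) on the log2 scale, from 2806 to 517 in M2 Macro. (Cx3cr1_lo), -2.44 (95% interval -2.61 to -2.27), and from 923 to 306 in M2 Macro. (Cx3cr1_hi), -1.59 (95% interval -1.78 to -1.42). In Monocyte (Patrolling) it went from 3973 to 2018 and in M1 Macro. from 2732 to 1604 CPM, short of 2-fold at -0.98 and -0.77. Both passed 2-fold as a mean over cells (-1.16 and -1.20) and in thinned cells (-1.07 and -1.09). In Dendritic it was higher at day 7. Free RNA held 844 and 578 CPM of Ctsl. Ctsb, cathepsin B, lay within 1.5-fold between days in each label, with ratios from -0.04 to 0.44, and its level ordered the labels instead, from 536 CPM in Dendritic to 10212 in Monocyte (Patrolling) at day 7. Ctsc was lower at day 7 in the 6 labels by less than 2-fold, from 1080.4 to 575 CPM in Monocyte (Inflammatory) (-0.91) and from 1113 to 917 in M2 Macro. (Cx3cr1_lo) (-0.28). Ctsz, a carboxypeptidase, had ratios from -0.85 in Dendritic to 0.89 in Monocyte (Patrolling), and Ctso, a cathepsin about which less is known, was at least 2-fold higher in Monocyte (Inflammatory), M1 Macro. and Dendritic, in the first and last of these from 9.53 and 6.98 CPM, levels from which only a higher day 7 level could pass the filter.

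Of the other peptidases none was at least 2-fold higher in any of the 6 labels. Ctsd, the aspartic protease cathepsin D, went from 5951 to 6734 CPM in Monocyte (Patrolling), 3407 to 3854 in M1 Macro., 2133 to 1756 in M2 Macro. (Cx3cr1_hi), 3486 to 2084 in M2 Macro. (Cx3cr1_lo) and 1392 to 954 in Monocyte (Inflammatory), with log2 ratios between -0.74 and 0.18. In Dendritic it went from 267 to 64.5 CPM, -2.05 (95% interval -2.44 to -1.68) on the log2 scale. Lgmn had ratios from -0.44 to 0.17, and Ctsa, the protective protein of beta-galactosidase and neuraminidase, and Tpp1, tripeptidyl peptidase, had positive ratios in the 5 monocyte and macrophage labels, of at most 0.90 and 0.66, and negative ones in Dendritic (-0.73 and -0.56). Together these peptidases held 9486 CPM in Monocyte (Patrolling) at day 2 and 10076 at day 7, and 7468 and 5393 in M2 Macro. (Cx3cr1_lo).

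Among the glycosidases single members differed in direction. Their summed level went from 1094 to 2714 CPM in Monocyte (Patrolling), from 917 to 2233 in M1 Macro., and from 557 to 721 in Dendritic. Man2b1, lysosomal alpha-mannosidase, went from 141 to 663 CPM in Monocyte (Patrolling) (2.23, 95% interval 2.06 to 2.41), 163 to 641 in M1 Macro., 129 to 424 in M2 Macro. (Cx3cr1_lo) and 184 to 505 in M2 Macro. (Cx3cr1_hi). In Monocyte (Inflammatory), where it had been highest at day 2, it went only from 232 to 280.3 CPM (0.27). Hexa, the alpha subunit of beta-hexosaminidase, went from 409.6 to 1367 CPM in Monocyte (Patrolling) and had ratios of 1.21 to 1.74 in the 5 monocyte and macrophage labels, with 0.11 in Dendritic. Glb1, beta-galactosidase, was at least 2-fold higher in Monocyte (Patrolling), M1 Macro. and M2 Macro. (Cx3cr1_hi), from 23.0 to 68.8 CPM in M1 Macro., and its counts are uncertain because Tmppe overlaps it on the same strand. Gaa, the acid alpha-glucosidase that degrades glycogen, passed 2-fold in Monocyte (Inflammatory) and M2 Macro. (Cx3cr1_hi). At day 7 these labels held 30.5 and 39.95 CPM of Gaa, below the 47.9 CPM of free RNA, which was 17.4 at day 2. In the authors' values with ambient RNA removed, the ratios were 1.37 and 1.20. The part of free RNA in these calls was not tested. In thinned cells the calls of Hexa (0.93) and Gaa (0.49) in Monocyte (Inflammatory) and of Glb1 in Monocyte (Patrolling) (0.64) were lost, and as a mean over cells that of Gaa in M2 Macro. (Cx3cr1_hi) (0.92). Gusb, beta-glucuronidase, and Gla, alpha-galactosidase, did not pass 2-fold in any of the 6 labels, and Gla had ratios from -0.64 in M2 Macro. (Cx3cr1_lo) to 0.77 in Dendritic.

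Genes of lipid breakdown and transfer were higher at day 7 as a sum in each of the 6 labels. Summed, they went from 5733 to 11852 CPM in M1 Macro., from 8736 to 15375 in Monocyte (Patrolling) and from 2931 to 5382 in Dendritic. Psap, the precursor of the saposins that present sphingolipids to their hydrolases, went from 3312 to 6371 CPM in Monocyte (Inflammatory), 6551 to 12055 in Monocyte (Patrolling), 3908 to 8632 in M1 Macro., 3667 to 7096 in M2 Macro. (Cx3cr1_hi), 2885 to 7145 in M2 Macro. (Cx3cr1_lo) and 1831 to 3398 in Dendritic. Its ratios lay close together, from 0.88 to 1.31. Lipa, lysosomal acid lipase, which frees cholesterol from its esters, spread more widely, from 47.2 to 359 CPM in Monocyte (Inflammatory), 2.93 (95% interval 2.59 to 3.27), to 165 to 285 in M2 Macro. (Cx3cr1_hi), 0.79 (95% interval 0.50 to 1.08). The 2 cholesterol transfer proteins parted. Npc2, of the lumen, had ratios from 0.46 to 0.88 in the 6 labels, whereas Npc1, of the membrane, had -0.95 to -0.67 in the 5 monocyte and macrophage labels and 0.83 in Dendritic. Asah1, acid ceramidase, was higher by less than 2-fold in the 5 monocyte and macrophage labels. Ppt1, palmitoyl-protein thioesterase, passed 2-fold in Dendritic only, from 98.7 to 359 CPM (1.86, 95% interval 1.62 to 2.11), and Smpd1 passed it in the 4 labels in which it reached the filter, at levels of at most 23.7 CPM. Its day 2 level was under 10 CPM in each of the 4, so that it could reach the filter only by being higher at day 7. The Smpd1 call was lost when cells were thinned in M1 Macro. (-0.84), M2 Macro. (Cx3cr1_hi) (0.04) and M2 Macro. (Cx3cr1_lo) (0.52), and in the last also as a mean over cells (0.94).

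Acp5, tartrate-resistant acid phosphatase, and Atp6v0d2 had the largest ratios of the members passing the filter in the 5 monocyte and macrophage labels. Atp6v0d2 in Monocyte (Inflammatory) and both M2 labels and Acp5 in Monocyte (Inflammatory) and Dendritic lay under 10 CPM at day 2 and passed the filter only through day 7. Acp5 (chr9:22126727-22135711, minus strand, GRCm38) went from 8.73 to 208 CPM in Monocyte (Inflammatory), 57.2 to 786 in Monocyte (Patrolling), 30.7 to 692 in M1 Macro., 46.1 to 495 in M2 Macro. (Cx3cr1_hi), 18.4 to 206 in M2 Macro. (Cx3cr1_lo) and 6.52 to 30.8 in Dendritic. The log2 ratios ran from 2.24 (95% interval 1.29 to 3.26) in Dendritic to 4.58 (95% interval 3.91 to 5.31) in Monocyte (Inflammatory). Free RNA held 8.19 CPM of Acp5 at day 2 and 107 CPM at day 7, above the dendritic level, and T Cells, which should lack the enzyme, stood at 67.0 CPM at day 7. After thinning each cell to 2000 UMIs, an Acp5 UMI was found in 15 of 186 cells (8.06%, exact 95% interval 4.58 to 13) of Monocyte (Patrolling) at day 2 and in 86 of 136 cells (63.2%, exact 95% interval 54.5 to 71.3) at day 7, against 37.1% and 91.9% unthinned. At day 7 the thinned share was 33 of 248 cells (13.3%, exact 95% interval 9.34 to 18.2) in T Cells and 1 of 149 cells (0.671%, exact 95% interval 0.017 to 3.68) in Endothelial (Capillary), with median depths of 3620.0 and 5444 UMIs before thinning and 9298 in Monocyte (Patrolling). M2 Macro. (Cx3cr1_lo), at 15 of 101 cells (14.9%, exact 95% interval 8.56 to 23.3), did not stand apart from T Cells on this measure, and the 7 of 144 cells (4.86%, exact 95% interval 1.98 to 9.76) of Dendritic lay below them. With SoupX values, from which the authors removed ambient RNA, the dendritic ratio was 2.19. Acp2, lysosomal acid phosphatase, was at least 2-fold higher in Monocyte (Inflammatory), M1 Macro. and M2 Macro. (Cx3cr1_hi), from 43.7 to 115 CPM in M1 Macro., and its call in Monocyte (Inflammatory) was lost in thinned cells (0.65).

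**Figure D4:**
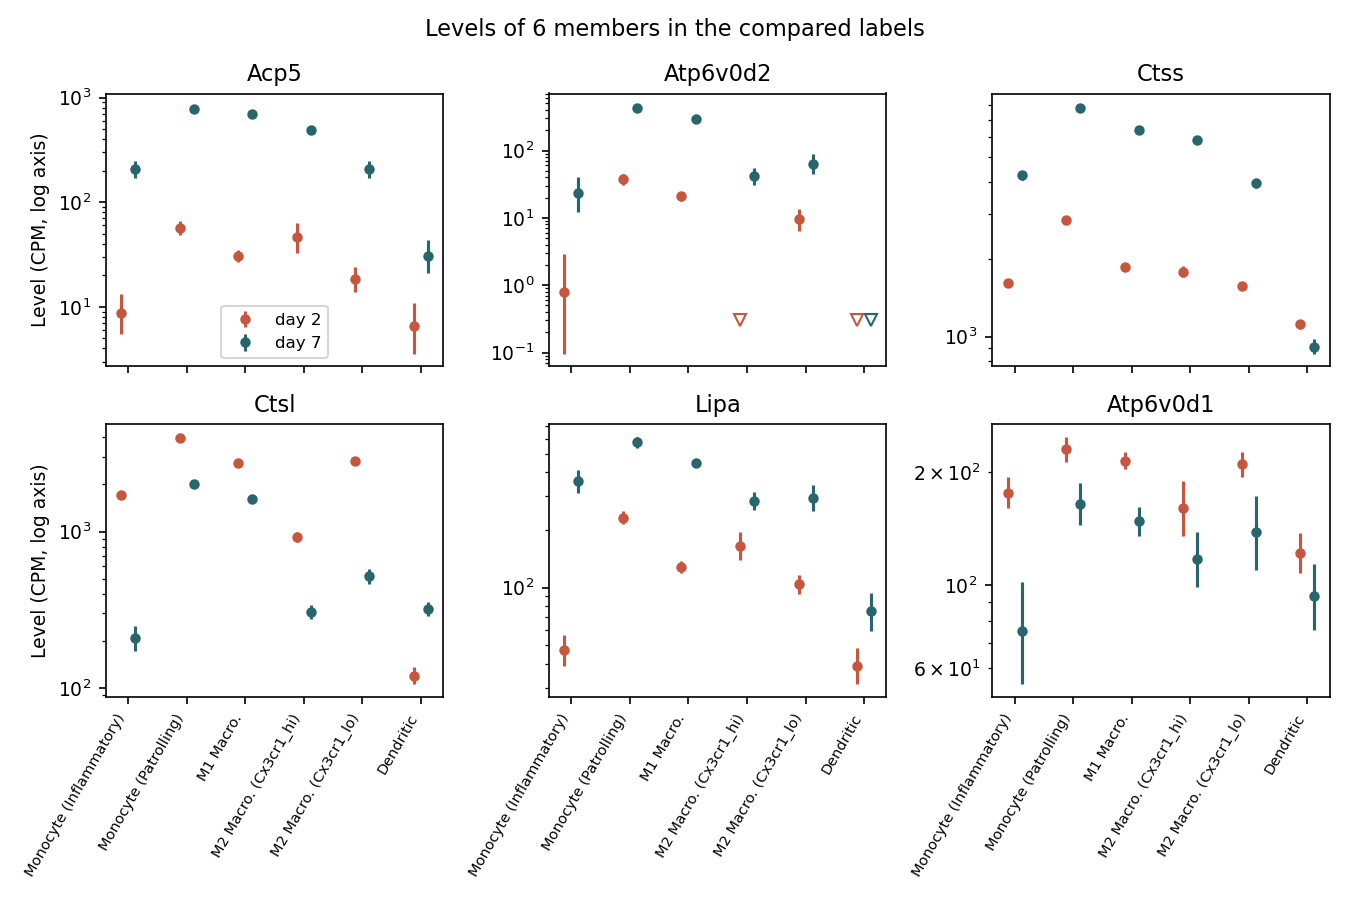
Levels of Acp5, Atp6v0d2, Ctss, Ctsl, Lipa and Atp6v0d1 in CPM (log axis, a different range in each panel) in the 6 compared labels at both days; bars are exact 95% Poisson intervals, and open triangles mark sums of 0 counts. Acp5, Atp6v0d2 and Lipa are higher at day 7 wherever counts were found, Atp6v0d1 is lower, and Ctsl is lower in 5 labels and higher in Dendritic.

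The 2 forms of the V-ATPase d subunit moved apart. Atp6v0d2 (chr4:19876841-19922605, minus strand) went from 37.4 to 425 CPM in Monocyte (Patrolling) (3.51, 95% interval 3.20 to 3.82), 20.8 to 295 in M1 Macro. (3.82, 95% interval 3.57 to 4.09), 9.51 to 64.0 in M2 Macro. (Cx3cr1_lo) (2.75) and 0.794 to 23.4 in Monocyte (Inflammatory), the last from 2 counts at day 2 (4.88, 95% interval 2.74 to 8.07). In M2 Macro. (Cx3cr1_hi) it had 0 counts at day 2 and 41.6 CPM at day 7, at least 12-fold higher with a floor of 3 counts for the day 2 sum, and in Dendritic it had 0 counts at both days. The call in M2 Macro. (Cx3cr1_hi) was lost in thinned cells (0.04). Free RNA held 4.58 CPM of Atp6v0d2 at day 2 and 33.8 CPM at day 7, above the day 7 level of Monocyte (Inflammatory). The share of thinned cells with an Atp6v0d2 UMI was 11 of 186 cells (5.91%, exact 95% interval 2.99 to 10.3) in Monocyte (Patrolling) at day 2 and 55 of 136 cells (40.4%, exact 95% interval 32.1 to 49.2) at day 7 (16.7% and 72.8% unthinned), against 2 of 248 cells (0.806%, exact 95% interval 0.0978 to 2.88) in T Cells at day 7. Atp6v0d1 (chr8:105524465-105566047, minus strand), the form of most tissues, was lower at day 7 in the 6 labels, from 176 to 75.5 CPM in Monocyte (Inflammatory) (-1.22, 95% interval -1.72 to -0.77) to 122 to 93.3 in Dendritic (-0.39), and past 2-fold in the former alone. Atp6v1a, the catalytic A subunit, had ratios from -0.47 to -0.19, with the interval below 0 in 4 labels. The signs of Atp6v0d1 and Atp6v1a were negative in 6 of 6 labels also with median-of-ratios scaling. Of 16 further V-ATPase genes, 14 passed the filter in each label. Their median log2 ratio ran from -0.65 in M2 Macro. (Cx3cr1_lo) to -0.23 in M1 Macro., below that of all genes in each label, which ran from -0.20 to 0.03. Past 2-fold, Atp6v0a2 was higher in Monocyte (Inflammatory), Atp6v1h was lower in Monocyte (Inflammatory) (-1.38), Monocyte (Patrolling) (-1.02) and M2 Macro. (Cx3cr1_lo) (-1.45) and Atp6v1c1 in M2 Macro. (Cx3cr1_hi) (-1.19) and M2 Macro. (Cx3cr1_lo) (-1.26). That is at most 1 of 14 higher and at most 2 of 14 lower in a label, where 12.2% to 14.7% of all genes were higher and 7.85% to 17% lower. Tcirg1, the a3 subunit used at the ruffled border of osteoclasts, had positive ratios in the 6 labels, from 0.24 to 0.88. Of 6 osteoclast markers, Oscar had 0 counts and Calcr at most 1.80 CPM in the 6 labels, Dcstamp reached 30.5 CPM in Monocyte (Inflammatory) at day 7, and the sum of the 6 markers went from 29.4 to 82.6 CPM in Monocyte (Inflammatory), 20.5 to 25.8 in Monocyte (Patrolling), 36.5 to 44.3 in M1 Macro., 41.5 to 35.9 in M2 Macro. (Cx3cr1_hi), 68.8 to 46.7 in M2 Macro. (Cx3cr1_lo) and 57.3 to 69.3 in Dendritic.

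Many lysosomal genes carry near their start the palindrome TCACGTGA, the core of the element bound by the transcription factor TFEB and its relatives. Promoter windows of 300 bases, 250 before to 50 after the start, were matched for 31 of 36 members from RefSeq (GRCm38.p6), leaving Asah1, Atp6v0d2, Ctsb, Ctsh and Npc1 without one. TCACGTGA, which reads the same on both strands, was found in 6 members, Atp6v0d1, Atp6v1a, Ctsa, Ctsd, Gla and Mcoln1, or 19.4% of those matched, and in 1.12% of all genes with a window (0.974% of the 32851 windows). The shorter CACGTG, which lies inside it, was found in 12 members (38.7%) and in 8.09% of all genes. Between days, the 6 members with TCACGTGA had 32 ratios that passed the filter. Of these, 0 were at least 2-fold higher and 2 at least 2-fold lower, Ctsd in Dendritic and Atp6v0d1 in Monocyte (Inflammatory). Of all genes, 12.2% to 14.7% were higher and 7.85% to 17% lower in the 6 compared labels. The windows of Ctsd (chr7:142387778-142388077), Atp6v0d1 (chr8:105566015-105566314) and Gla (chrX:134600956-134601255) are shown beside that of Acp5 (chr9:22135697-22135996, 1 of 3 windows of that gene, none with a match), a member past 2-fold in the 5 monocyte and macrophage labels, to set genes with the element against one without. All 4 lie on the minus strand and are written 5′ to 3′ along it, with TCACGTGA in capitals.
Ctsd: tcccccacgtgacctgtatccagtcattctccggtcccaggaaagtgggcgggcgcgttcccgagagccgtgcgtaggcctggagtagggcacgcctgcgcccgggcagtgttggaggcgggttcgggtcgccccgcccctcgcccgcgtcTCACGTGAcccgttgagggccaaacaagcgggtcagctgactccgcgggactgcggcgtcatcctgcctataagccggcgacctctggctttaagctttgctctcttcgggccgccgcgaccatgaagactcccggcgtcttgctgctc
Atp6v0d1: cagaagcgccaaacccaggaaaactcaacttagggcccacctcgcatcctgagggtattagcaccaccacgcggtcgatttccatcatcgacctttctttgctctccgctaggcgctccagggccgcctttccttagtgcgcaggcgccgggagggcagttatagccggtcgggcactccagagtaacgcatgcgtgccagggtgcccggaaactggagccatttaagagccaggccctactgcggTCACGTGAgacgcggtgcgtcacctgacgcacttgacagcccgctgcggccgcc
Gla: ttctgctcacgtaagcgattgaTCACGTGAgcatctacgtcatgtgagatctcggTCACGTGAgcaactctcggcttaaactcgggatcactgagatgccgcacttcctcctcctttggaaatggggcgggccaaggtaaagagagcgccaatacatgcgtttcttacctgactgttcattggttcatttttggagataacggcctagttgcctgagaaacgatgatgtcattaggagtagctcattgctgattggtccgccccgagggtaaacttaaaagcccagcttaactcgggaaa
Acp5: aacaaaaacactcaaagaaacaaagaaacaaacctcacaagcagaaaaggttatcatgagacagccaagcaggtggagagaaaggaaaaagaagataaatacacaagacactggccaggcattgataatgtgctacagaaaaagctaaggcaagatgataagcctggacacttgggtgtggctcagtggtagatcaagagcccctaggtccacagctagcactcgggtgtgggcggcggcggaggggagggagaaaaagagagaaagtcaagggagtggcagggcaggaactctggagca
The element stood at 1 place in Ctsd and in Atp6v0d1, in the latter across the annotated start, and at 2 places in Gla. A match is a string of letters and no measured site.

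The membrane proteins differed by member. Cd63, a tetraspanin of late endosomes, went from 205 to 733 CPM in Monocyte (Inflammatory) (1.84, 95% interval 1.65 to 2.03), 347 to 1012 in M2 Macro. (Cx3cr1_hi), 857 to 1979 in M1 Macro. and 64.3 to 155 in Dendritic, each at least 2-fold, and from 1593 to 2689.8 in Monocyte (Patrolling) and 1068 to 1092 in M2 Macro. (Cx3cr1_lo). The dendritic call was lost as a mean over cells (0.72) and in thinned cells (0.49), and both dendritic levels lay under the 343 and 514 CPM of free RNA. Lamp1, the most used lysosomal membrane marker, lay between -0.16 and 0.38 on the log2 scale in the 6 labels. Lamp2, needed for fusion with autophagosomes, had -0.64 in Monocyte (Inflammatory), -0.93 in Dendritic and 0.45 in Monocyte (Patrolling). Cd68 lay within 1.5-fold between days in the 5 monocyte and macrophage labels, from -0.47 to 0.24, and went from 297 to 148 CPM in Dendritic (-1.0, 95% interval -1.27 to -0.75), a call lost as a mean over cells (-0.89). Mcoln1, the lysosomal calcium channel, was low throughout, at no more than 14.0 CPM in the 6 labels, and passed the filter in 2 of them.

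The Dendritic label departed from the others in several members, and its make-up also differed between days. Ctsl went from 119.7 CPM (95% interval 105 to 135) to 320.4 CPM (95% interval 287 to 357), 1.42 (95% interval 1.18 to 1.66) on the log2 scale, while Ctsd and Cd68 were at least 2-fold lower and Ppt1, Ctso (2.53), Cd63 and Acp5 at least 2-fold higher. At day 7 the dendritic levels of Ctsl, Ctsd, Cd63 and Acp5 lay under those of free RNA (578, 787, 514 and 107 CPM). Siglech, which marks plasmacytoid dendritic cells, stood at 32.6 CPM at day 2 and 354 at day 7, and 7 of 170 cells at day 2 and 34 of 145 at day 7 had at least 2 Siglech UMIs. Those cells held 500.3 CPM of Ctsl at day 2 and 1259.7 at day 7. The 159 and 105 dendritic cells with no Siglech UMI held 106 and 66.0 CPM, a log2 ratio of -0.68 (95% interval -1.15 to -0.24), so that the increase of Ctsl was not present among them. Ppt1 showed the reverse. It went from 101 to 447 CPM in the cells with no Siglech UMI, 2.14 (95% interval 1.89 to 2.40), and stood at 67.7 CPM in those with at least 2. The lower Ctsd level was also present without Siglech cells, from 278 to 55.8 CPM (-2.32). Ctsb, within 1.5-fold between days in the whole label, went from 535 to 301 CPM in the cells with no Siglech UMI (-0.83, 95% interval -1.04 to -0.63) and stood at 960.1 and 1399.7 CPM in those with at least 2. This split of the label was chosen after its values were seen.

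Within a library, the 3 macrophage labels as a group lay close to the 3 monocyte labels. Their summed levels were 28595 and 30783 CPM at day 2, a log2 ratio of -0.11 (95% interval -0.11 to -0.10), and 41646 and 48908 CPM at day 7, -0.23 (95% interval -0.24 to -0.22). None of 33 members at day 2 and of 35 at day 7 was at least 2-fold higher in the macrophage labels, as 0.688% and 0.365% of all genes were. Ctsk at day 2, at 15.9 against 37.8 CPM (-1.24), was at least 2-fold lower in the macrophage labels, where 0.513% of all genes were, and no member was at day 7, against 0.436%. The comparison depends on Monocyte (Patrolling), the label with Spp1 and Gpnmb among its leading genes and the highest summed level at both days. Leaving it out must raise the ratio of the sums, and this alternative was chosen after seeing the data. Without Monocyte (Patrolling), 8 of 32 members at day 2 and 4 of 34 at day 7 were at least 2-fold higher in the macrophage labels, beside 4.12% and 1.96% of all genes. This comparison is between groups of labels and not between cell types, given the markers described above.

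A few members belonged elsewhere. Ctsk, cathepsin K, the collagen-degrading protease known from bone, stood at 90.7 CPM (95% interval 81.0 to 101) in FAPs (Pro-remodeling) at day 2 and at 884 CPM (95% interval 860.2 to 908) at day 7, with 816 in FAPs (Adipogenic) and 520.2 in FAPs (Stem) at day 7. In the 6 labels it went from 21.0 to 78.1 CPM in M1 Macro. (1.90, 95% interval 1.60 to 2.20) and 4.76 to 18.0 in Monocyte (Inflammatory) (1.92, 95% interval 0.55 to 3.25), from 70.5 to 39.8 in Monocyte (Patrolling) (-0.83, 95% interval -1.28 to -0.39), and stood at 6.52 in M2 Macro. (Cx3cr1_hi), 6.92 in M2 Macro. (Cx3cr1_lo) and 2.89 in Dendritic at day 7. Each of these lay below the 182 CPM of free RNA at day 7, which was 14.7 at day 2, and the part of free RNA in them was not tested. Ctsf, another cysteine cathepsin, went from 5.13 CPM (95% interval 3.04 to 8.11) to 129 CPM (95% interval 120.3 to 139) in FAPs (Pro-remodeling), and Gaa from 51.3 to 212 CPM. The Ctsf level of the 6 labels at day 7, from 3.59 to 14.7 CPM, lay below the 31.8 CPM of free RNA, and the summed FAP markers in these labels went from a range of 13 to 19.1 CPM at day 2 to one of 115 to 256 CPM at day 7. Cd63 was high in FAPs at both days, 1958 and 1706 CPM in FAPs (Pro-remodeling), against 34.9 CPM in Endothelial (Capillary) at day 7. Neutrophils, with 708 cells at day 2 and 10 at day 7, had the highest levels of Gla (325 CPM) and Lamp2 (522 CPM) of the labels with at least 50 cells at day 2. Monocyte (Cxcl10+), with fewer cells, stood at 337 CPM of Gla. The 71 neutrophils with the most counts of the list held 40.8% of the label's counts of the list and 20.7% of all its counts. They were picked by those counts, so part of this gap is fixed by the ranking. The T Cells label had 1343 CPM of Cd63 at day 2 and 64.6 at day 7. At day 2, 17 of its 50 cells carried at least 3 UMIs of basophil and mast cell markers and held 1987 CPM of Cd63, and the other 33 held 1106 CPM.

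**Figure D5:**
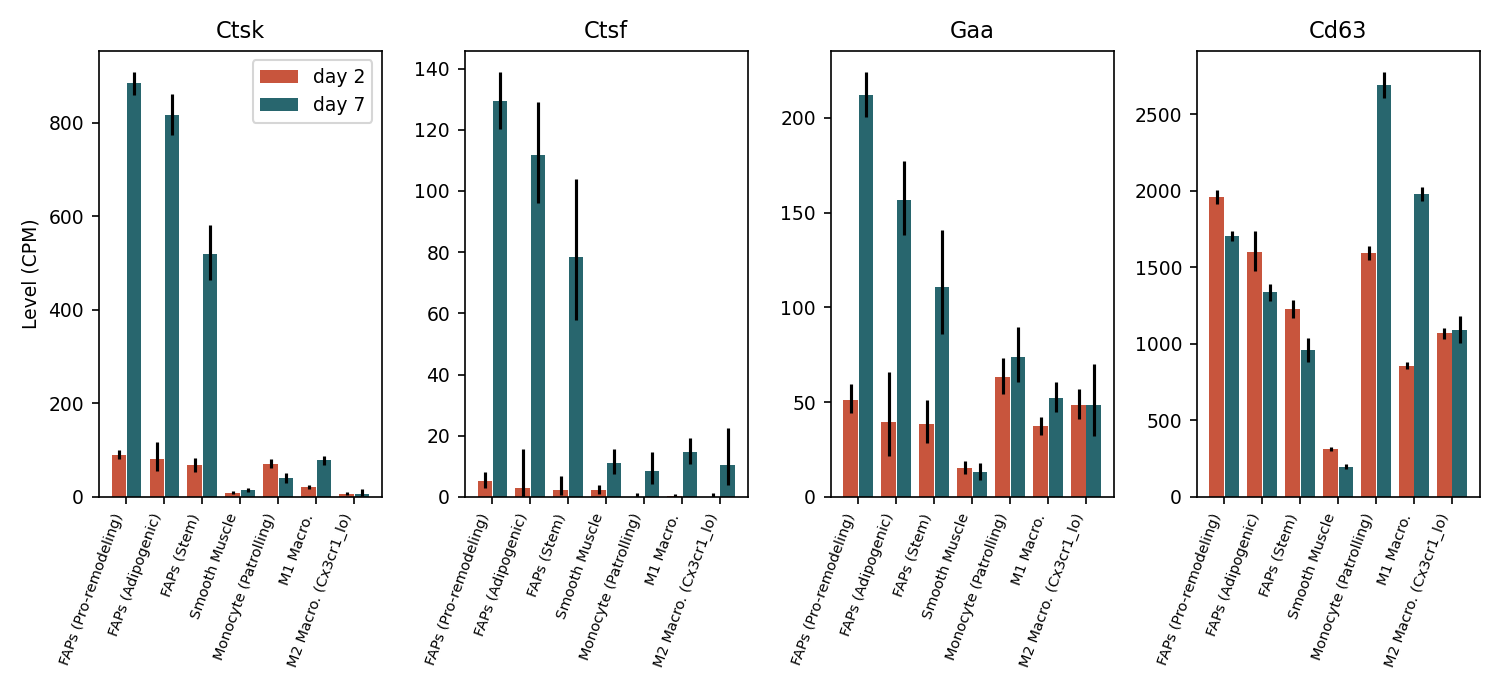
Levels of Ctsk, Ctsf, Gaa and Cd63 in CPM (y axis, a different range in each panel) in 3 FAP labels, Smooth Muscle and 3 monocyte and macrophage labels at both days; bars are sums over the cells of 1 library with exact 95% Poisson intervals, and FAPs (Adipogenic) and FAPs (Stem) held 30 and 47 cells at day 2. Ctsk, Ctsf and Gaa stand highest in the FAP labels at day 7.

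The other genes of the pathway, 87 in all, were set beside the members. These lists too were chosen with earlier results of these data known. Between days, the number of these at least 2-fold higher ran from 9 of 72 passing the filter in Dendritic to 21 of 79 in Monocyte (Patrolling), where 12.7% and 12.8% of all genes were, so that the dendritic share lay close to that of all genes. The number lower ran from 2 of 79 in M1 Macro. to 8 of 77 in M2 Macro. (Cx3cr1_hi), where 15% and 16.2% of all genes were. Of 27 further hydrolases, 13 of 27 in Monocyte (Patrolling), 12 of 27 in M1 Macro., 10 of 26 in M2 Macro. (Cx3cr1_lo), 10 of 25 in M2 Macro. (Cx3cr1_hi), 10 of 24 in Monocyte (Inflammatory) and 3 of 22 in Dendritic were higher, against 12.2% to 14.7% of all genes over the 6 labels and 12.7% in Dendritic. Cpq, a carboxypeptidase, had ratios of 2.09 to 4.89 in the 5 monocyte and macrophage labels. Of 17 further membrane proteins, 14 or 15 passed the filter in a label, of which 1 to 4 were higher and at most 1 lower. Of all genes, 12.2% to 14.7% were higher and 7.85% to 17% lower. Among these proteins Gpnmb, a glycoprotein of phagocytes, had 2.14 to 4.11 in the same 5 labels, and Cd164, a sialomucin, had -1.75 to -0.95 over the 6. The cathepsin inhibitors were split, with Cstb, stefin B of the cytosol, lower in the 6 labels (-2.06 to -1.12) and Serpinb6a higher (1.56 to 3.89). Of 10 genes that sort enzymes to the lysosome, 8 to 10 passed the filter in a label. At most 1 of them was higher in a monocyte or macrophage label, 3 of 9 were in Dendritic, and at most 1 was lower in any label. Igf2r, the cation-independent mannose 6-phosphate receptor, had -1.64 in M2 Macro. (Cx3cr1_lo) and 3.30 in Dendritic. Of 11 further regulators, at most 1 was higher and at most 3 lower in a label, of 8 to 10 passing the filter, where 12.2% to 14.7% of all genes were higher and 7.85% to 17% lower, with medians of -0.13 to 0.11. Among them Tfeb, a transcription factor of lysosomal genes, had 1.19 to 1.85 in the 5 monocyte and macrophage labels and 0.60 in Dendritic, and Flcn, which restrains it, had -2.27 to -0.14 in the 6. Sort1, another sorting receptor, had 3.44 in Dendritic and 1.83 in Monocyte (Patrolling), and Cst3, cystatin C, had 1.42 in Monocyte (Patrolling).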

How the data were processed

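Whole dissociated muscle was measured in 2 droplet libraries (10x Chromium), 1 per day. The authors deposited UMI counts per gene and barcode, aligned to mm10 (file headers give Cell Ranger 3.0.1, the submitters' processing notes Cell Ranger 3.1.0 and Seurat 3.1.5). They also deposited SoupX values, estimated counts with ambient RNA removed, and an annotation of barcodes, made from clusters of a larger integrated collection after doublet removal per the methods of the study. No doublet caller was run here.

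Kept cells had a label and, in the SoupX values, at least 750 genes, 1000 transcripts and at most 30% mitochondrial transcripts. Called barcodes held 41123913 counts at day 2 and 32356088 at day 7. Uncorrected counts were summed per label and day and scaled to CPM. A member was called when CPM differed at least 2-fold and the mean of both sums was at least 10 CPM. Levels have exact Poisson intervals, ratios exact conditional binomial intervals and shares exact Clopper-Pearson intervals, all at 95%. For calls, shares of all genes and the alternatives, sums under 3 counts were taken as 3. Ratios printed for the main setting used this floor only where a sum was 0. Shares used cells thinned to 2000 counts, with shallower cells left out. Barcodes of at most 100 counts stood for free RNA. UMI counts come from the 3′ end, so levels were compared within a gene. On simulated counts, 95.4% of intervals held the true ratio in M1 Macro. (7149 genes) and 96.4% in Monocyte (Inflammatory) (6896 genes), and 0.0144% and 3.46% of unchanged genes were called. Analyses used Python 3.11.15, numpy 2.4.6, scipy 1.17.1, pandas 2.3.3 and matplotlib 3.10.9, coordinates GENCODE vM21.

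The text names each member by role, gives values for up to 6 members with the largest and 6 with the smallest ratio per comparison, and gives the osteoclast-associated members and the main cathepsins in each label. Members and lists were chosen with earlier results of these data known. Alternatives were SoupX values, no limits on cells, the mean over cells, thinned cells, median-of-ratios scaling, a fold of 1.5, no level filter and leaving out the most abundant member. A result on 1 further gene is not reported here.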

Additional observations from a re-analysis of the deposited data

Results flagged for a closer look

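Ctsl had log2 ratios of opposite sign in labels of the same 2 libraries, 1.42 in Dendritic and -3.04 in Monocyte (Inflammatory). With 1 library per day the difference between these labels was not tested.

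Called barcodes outside the annotation also held the 36 genes. The 680 such barcodes at day 2 that passed the same quality limits reached a summed level of 14612 CPM (95% interval 14513 to 14711), above the 7762 CPM of free RNA, and the 477 at day 7 reached 11128 CPM (95% interval 11013 to 11243), against 9730.0 CPM. They carry no label and entered no comparison.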

How the results depend on the processing

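No paired analysis was possible because each day had 1 library, so the days share fewer than 2 replicate numbers. Of 36 alternatives to the log2 ratio of the summed genes, 35 kept its sign, the exception being Dendritic without Psap (-0.0094). In the order Monocyte (Inflammatory), Monocyte (Patrolling), M1 Macro., M2 Macro. (Cx3cr1_hi) and M2 Macro. (Cx3cr1_lo), the ratio was 0.38, 0.52, 0.67, 0.53 and 0.16 as a mean over cells, 0.46, 0.67, 0.77, 0.87 and 0.26 with median-of-ratios scaling (0.15 in Dendritic), and 0.29, 0.47, 0.60, 0.53 and 0.25 without the most abundant member, which was Psap except for Ctsb in the last. Thinned to 2000 counts it was 0.36 in Monocyte (Inflammatory), 0.50 in Monocyte (Patrolling), 0.53 in M2 Macro. (Cx3cr1_hi) and 0.24 in M2 Macro. (Cx3cr1_lo). The cause of these shifts was not tested.

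Of 120 alternatives to counts of members, 100 lay within 1.5 times. A fold of 1.5 gave 18 higher members in Monocyte (Patrolling) and 11 in Dendritic (21.2% and 23.9% of all genes), and 6, 4, 2, 3, 5 and 6 lower members in the 6 labels in the order above with Dendritic last (29.8%, 31.0%, 31.3%, 31.7%, 31.9% and 18.6% of all genes). Lower members also numbered 1 in Monocyte (Patrolling) with SoupX values, 2, 1 and 1 in Monocyte (Patrolling), M1 Macro. and Dendritic as a mean over cells, and 2, 1 and 2 in Monocyte (Patrolling), M1 Macro. and M2 Macro. (Cx3cr1_hi) when thinned. At day 2, 0 members were lower in the pooled labels than in other cells with median-of-ratios scaling and 2 with no level filter. Without the Monocyte (Patrolling) label, an alternative chosen after seeing the data, 8 members at day 2 and 4 at day 7 were higher in the macrophage than in the monocyte labels and 0 were lower at day 2. Of 65 calls of a member in a label, 65 held with SoupX values, without limits on cells and with median-of-ratios scaling, 61 as a mean over cells and 56 when thinned, where Smpd1 in M1 Macro. changed sign and Atp6v0d2 in M2 Macro. (Cx3cr1_hi) was among those lost. Unthinned shares in Monocyte (Patrolling) were 37.1% and 91.9% for Acp5 and 16.7% and 72.8% for Atp6v0d2. Sums of under 100 cells, as in Monocyte (Inflammatory) at day 7 and M2 Macro. (Cx3cr1_hi) at day 2, limit what can be said of members near 10 CPM.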
